A study of Mus musculus with 30 samples.

Results

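The genes described here are those of cell cycle control, DNA replication and mitosis on arrays of the mouse mammary gland. They were chosen by gene symbol, as probes with 1 symbol in the families of the cyclins, cyclin-dependent kinases, Cdc genes, Mcm, Orc and Rfc proteins, replicative DNA polymerases, Cks, Plk, Aurk, Bub and Kif genes, Rb1 and the Rbl genes; Mcm7 was left out. The symbol rule itself reads no measured value, though it was written with earlier results of these data known. It gave 30 probes for 29 genes among 6267 probes, of which 3997 carry 1 symbol. Ccnl1 has 2 probes, and each other gene has 1. The study took glands of E2F3 +/- mice, which carry 1 altered E2f3 allele, and of wild type mice, at lactation and on involution days 1, 2, 3 and 4, with 3 mice in each of the 10 groups. Lactation stands as day 0 of involution, the regression of the gland once suckling ends. Each of the 30 arrays compared the RNA of 1 mouse with a common mouse reference RNA; strain, age and the way the allele was made are not stated in the labels used. The targeted gene itself could not be read, since 0 probes are named E2f3.

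Cyclins and their kinases phosphorylate the retinoblastoma protein Rb1, which otherwise holds E2F factors in check; freed E2Fs, E2F3 among them, drive the genes that copy DNA. Origin recognition (Orc) and Mcm proteins license the origins, Rfc proteins load the sliding clamp, polymerases delta and epsilon copy the strands, and cyclin A, Bub3 and the anaphase-promoting complex act around mitosis. In the mammary gland the secretory epithelium multiplies in pregnancy, secretes milk in lactation and dies in involution, while fat, stroma and macrophages return.

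The symbol rule also takes in genes that act outside the cell cycle. The 4 kinesins (Kif3c, Kif5b, Kif13b and Kif21a) are known for transport along microtubules, Ccnl1 is a cyclin of transcription and splicing, and Cdc42ep2 is an effector of the GTPase Cdc42. The name of the group therefore does not suit these genes. Cdk18, Ccng1 and Ccng2 were also kept apart from the G1 and mitotic cyclins and kinases, among other cyclins, kinases and partners.

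Because the study alters an E2F, the promoters of the members were searched for letters that E2F factors are known to bind (TTTCGCGC, TTTGGCGC, TTTCCCGC or TTTGCCGC, on both strands), for TTTGAA, the letters of the CHR element of late cell cycle genes, and for CCAAT, both also on both strands. RefSeq promoter windows of build GRCm38.p6, from 250 bases before to 50 after the gene start, matched 21 of the 29 genes. E2F letters stood in 4 of the 21 genes (19%), Cdc25a, Pold1, Pold3 and Pole4, against 2.6% of 27025 genes in the same table. TTTGAA stood in 2 of 21 (9.52%) against 20.2%, and CCAAT in 10 of 21 (47.6%) against 41.1%. A match describes letters, not binding. The stretches below are the ones that hold the E2F letters, and for Bub3 the CHR and CCAAT letters, in capitals, read 5′ to 3′ on the gene's strand; Cdc25a also has CCAAT letters in capitals, as ATTGG of the opposite strand.
Cdc25a, chr9:109875439-109875528, plus strand: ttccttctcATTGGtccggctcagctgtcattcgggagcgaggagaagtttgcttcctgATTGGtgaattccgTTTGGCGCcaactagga
Pole4, chr6:82652866-82652925, minus strand: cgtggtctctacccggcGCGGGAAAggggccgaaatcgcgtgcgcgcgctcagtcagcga
Pold1, chr7:44548766-44548795, minus strand: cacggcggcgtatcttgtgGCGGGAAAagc
Pold3, chr7:100121467-100121496, minus strand: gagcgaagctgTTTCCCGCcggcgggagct
Bub3, chr7:131560280-131560349, plus strand: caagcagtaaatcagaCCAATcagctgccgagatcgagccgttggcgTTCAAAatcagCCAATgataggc

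Values are ratios of gland to reference, each divided by the median ratio of its array (centred ratio), so a level says how a gene stands against the reference and cannot be set against another gene's. The direction, gland over reference, is likely rather than stated; it rests on the dyes in the labels. Ratios listed at 0 or 0.01 carry no stated meaning and were treated as missing; they make up 7.64% of the table. The share was highest, 22%, on wild type lactation replicate 1, which lacks 14 of the 30 members, and 17.2% on wild type lactation replicate 2, which lacks 8. E2F3 +/- day 3 replicate 1 and day 4 replicate 3 stood apart: after the mean of all arrays was removed from each probe, they correlated at -0.11 and -0.04 with the mean of the other arrays of their own groups. Without both, 10 member differences that involve their groups gained a call, 1 lost its call and 94 kept their status. Values without them are given for several results that changed, not for every gene. A probe was tested if every group had at least 2 values, which held for 21 of the 30 members and 5010 of 6267 probes. Differences are on the log2 scale with standard errors from limma, adjusted p is Benjamini-Hochberg over all 5010 probes, a call means adjusted p under 0.05, and n is 3 against 3 unless arrays without a ratio are given.

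Markers of other cell types moved with involution, and fewer macrophage, adipocyte and fibroblast probes were called on day 1 than later. On E2F3 +/- days 1, 2 and 3, 2, 8 and 10 of 10 macrophage probes, 2, 4 and 4 of 4 adipocyte probes and 2, 4 and 4 of 4 fibroblast probes were called higher than at lactation, and 0, 1 and 3 of 4 milk probes lower. On wild type days 1, 2 and 3, 2, 10 and 10 macrophage, 0, 4 and 3 adipocyte and 0, 4 and 4 fibroblast probes were called higher, and 1, 4 and 1 milk probes lower. All 10 probes of 9 macrophage genes were called higher on day 4 in both genotypes, as were all 4 tested adipocyte probes (3 genes) and all 4 fibroblast probes, and all 4 probes of 3 milk genes were called lower. The summed centred ratio of the 9 macrophage probes read on every array was 92.4 to 212 in E2F3 +/- glands on day 4 against 9.86 to 11.2 at lactation, and 132 to 222 in wild type glands on day 4 against 10.7 to 19.1 at lactation. For the 4 adipocyte probes it was 1664 to 2720 in E2F3 +/- glands on day 4 against 193 to 581 at lactation, and 742 to 3809 in wild type glands on day 4 against 318 to 595 at lactation. For the 3 fibroblast probes it was 10.8 to 15.1 in E2F3 +/- glands on day 4 against 1.98 to 2.47 at lactation, and 10.4 to 22.9 in wild type glands on day 4 against 2.4 to 3.56 at lactation. The day 1 sums of adipocyte probes were 650 to 1200 in E2F3 +/- and 345 to 599 in wild type glands. Those of fibroblast probes were 3.16 to 4.24 in E2F3 +/- and 1.79 to 2.08 in wild type glands. For the 4 milk probes it was 1434 to 6177 in E2F3 +/- glands on day 4 against 13173 to 15744 at lactation, and 2071 to 3232 in wild type glands on day 4 against 9484 to 14164 at lactation. Over the 4 luminal keratin and junction probes it was 40.8 to 74.1 in E2F3 +/- glands on day 4 against 21.7 to 44.5 at lactation. In wild type glands it was 40.3 to 68.6 on day 4 against 11.7 to 41.7 at lactation. On day 1 it was 85 to 132 in E2F3 +/- glands and 122 to 466 in wild type glands. Of 5 luminal probes, 4, 3, 3 and 3 were called higher on E2F3 +/- days 1 to 4 and 4, 3, 4 and 3 on wild type days 1 to 4. Their median log2 difference was largest on day 1, at 1.88 in E2F3 +/- and 3.17 in wild type glands. Of 6 skeletal muscle probes, 0, 0, 4 and 1 were called higher on E2F3 +/- days 1 to 4 and 0, 6, 2 and 6 on wild type days 1 to 4. Their median log2 differences on days 2, 3 and 4 were 1.76, 3.1 and 2.03 in E2F3 +/- glands and 4.21, 3.02 and 4.53 in wild type glands. The 1 skeletal muscle probe read on every array ranged over 0.156 to 67.2 in E2F3 +/- glands on day 4. No T, NK or B cell marker of the lists used is among the probes named. In whole-gland RNA, fewer cells of a type and less RNA per cell cannot be told apart, and the part of these shifts in the results below was not tested.

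Against lactation, the members split into genes that were higher and genes that were lower during involution, and none was called in both directions. Of the 21 tested members, 19 were called on at least 1 day: 11 only higher (Bub3, Ccnd2, Ccng1, Ccng2, Ccnl1, Cdc42ep2, Mcm4, Orc5, Pold1, Rfc1 and Rfc2) and 8 only lower (Kif13b, Kif5b, Cdk18, Pold3, Rfc5, Orc4, Ccna2 and Cdc25a). Cdk4 and Pole4 were called on no day. Kif13b alone was called on all 4 days in both genotypes. On E2F3 +/- day 1, 7 members and 43.6% of all probes were called: 4 members higher (23.2% of all probes) and 3 lower (20.3%). On E2F3 +/- day 2, 10 members and 45.9% of all probes were called: 5 members higher (23.7% of all probes) and 5 lower (22.2%). On E2F3 +/- day 3, 17 members and 66.8% of all probes were called: 9 members higher (34.2% of all probes) and 8 lower (32.7%). On E2F3 +/- day 4, 13 members and 70.5% of all probes were called: 8 members higher (33.2% of all probes) and 5 lower (37.4%). On wild type day 1, 6 members and 36.7% of all probes were called: 3 members higher (18.5% of all probes) and 3 lower (18.2%). On wild type day 2, 14 members and 65.2% of all probes were called: 10 members higher (31.8% of all probes) and 4 lower (33.4%). On wild type day 3, 8 members and 39% of all probes were called: 5 members higher (17.4% of all probes) and 3 lower (21.6%). On wild type day 4, 14 members and 56.4% of all probes were called: 8 members higher (25.4% of all probes) and 6 lower (31%). The median difference of the members on day 4 was 0.55 in E2F3 +/- glands, beside -0.01 over all probes, and 0.19 in wild type glands, beside 0.06. The 4 days taken jointly (F test) called 16 members in E2F3 +/- glands, where 77.1% of all probes were called, and 16 in wild type glands, where 82% were. Over all 8 contrasts it called 20 of 21 members and 93% of all probes. The members' shares lay below that of all probes on some days and above it on others, and nothing particular to the members is read from them. The days of a genotype share its lactation arrays.

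The counts leaned on single arrays. Shares of all probes called in the fits below are not given, so the drops are not read as particular to the members. Without wild type lactation replicate 2, 3, 10, 3 and 4 members were called on wild type days 1 to 4. Without wild type lactation replicate 3 the day 4 count was 8, and without wild type day 4 replicate 1, 2 or 3 it was 9, 9 or 7. Without E2F3 +/- lactation replicate 1 or day 2 replicate 2, 6 were called on E2F3 +/- day 2, and without E2F3 +/- day 3 replicate 2, 11 were called on day 3. Of the 90 called differences between groups, 41 were called whichever array was left out and 49 were not; the arrays that decide a call are named with each gene.

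**Figure D1:**
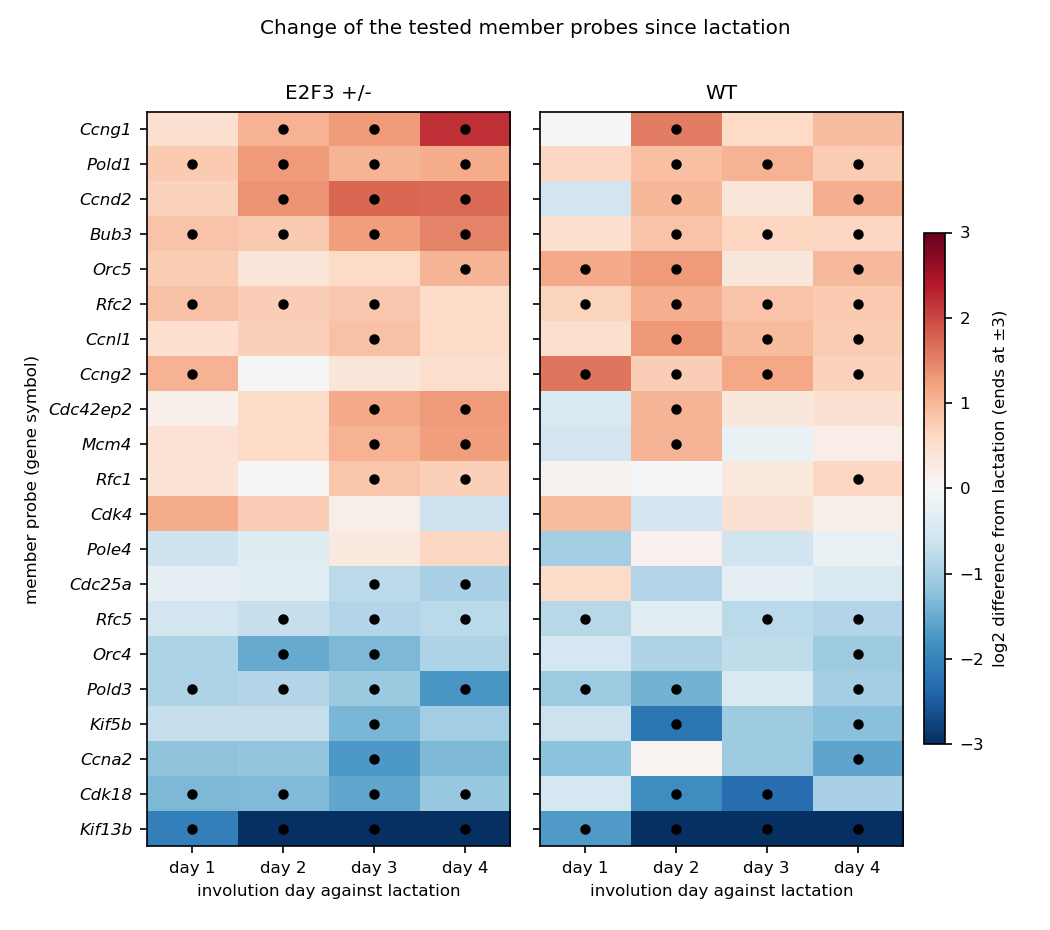
Log2 difference of each tested member probe between an involution day (columns) and lactation, with E2F3 +/- glands left and wild type glands right; red is higher and blue lower than at lactation, colour ends at ±3, and a dot marks adjusted p under 0.05. Kif13b, the bottom row, is the 1 probe with a dot in all 8 columns, and rows hold dots of 1 direction only.

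Cyclin D2 (Ccnd2), the G1 cyclin that with Cdk4 or Cdk6 phosphorylates Rb1, was called higher in 5 of the 8 comparisons of a day with lactation, on E2F3 +/- days 2 to 4 and wild type days 2 and 4. Ccnd2 in E2F3 +/- glands read 0.162, 0.206 and 0.198 at lactation, 0.331, 0.308 and 0.266 on day 1, 0.408, 0.627 and 0.425 on day 2, 0.435, 0.579 and 0.932 on day 3 and 0.779, 0.595 and 0.479 on day 4. Ccnd2 in wild type glands read 0.791, 0.273 and 0.308 at lactation, 0.219, 0.368 and 0.26 on day 1, 0.643, 1 and 0.827 on day 2, 0.422, 0.603 and 0.552 on day 3 and 0.808, 0.782 and 1.02 on day 4. In E2F3 +/- glands every array of days 1 to 4 lay above the 3 lactation arrays; among wild type lactation arrays replicate 1 read 0.791 and stood above the other 2. The E2F3 +/- differences on days 1 to 4 were 0.68, 1.35, 1.72 and 1.69 (adjusted p = 0.0908, 0.00244, 0.000199 and 0.000175), SE 0.33. In wild type glands they were -0.56, 1.00, 0.36 and 1.09 (adjusted p = 0.185, 0.0113, 0.363 and 0.00847), SE 0.33. Ccnd2 lost the wild type day 2 call without lactation replicate 2 or 3 (adjusted p up to 0.0854). For Ccnd2 the wild type day 4 call was lost without lactation replicate 2 (adjusted p up to 0.0637).

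Cdk4, the kinase partner of the D cyclins, was called on no day. Cdk4 in E2F3 +/- glands read 0.247, 0.205 and 0.17 at lactation, 0.627, 0.495 and 0.281 on day 1, 0.271, 0.337 and 0.428 on day 2, 0.395, 0.0919 and 0.342 on day 3 and 0.0839, 0.0833 and 0.34 on day 4. Cdk4 in wild type glands read 0.279, 0.281 and 0.305 at lactation, 0.587, 0.461 and 0.632 on day 1, 0.18, 0.343 and 0.12 on day 2, 0.507, 0.349 and 0.348 on day 3 and 0.299, 0.372 and 0.311 on day 4. The 3 E2F3 +/- day 1 arrays and the 3 wild type day 1 arrays all lay above their lactation arrays, with log2 differences of 1.11 ± 0.49 (adjusted p = 0.0643) in E2F3 +/- and 0.95 ± 0.49 (adjusted p = 0.127) in wild type glands. On day 4 the 3 E2F3 +/- arrays disagreed: replicates 1 and 2 read 0.0839 and 0.0833, and replicate 3, the array that stood apart, read 0.34. Without that replicate the E2F3 +/- day 4 difference from lactation was -1.29 (adjusted p = 0.0144), against -0.62 ± 0.49 (adjusted p = 0.251) with it.

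Cdc25a, the phosphatase that activates the kinases of S phase entry and a gene with E2F letters in the promoter shown above, was lower late in involution in E2F3 +/- glands. Cdc25a in E2F3 +/- glands read 1.59, 0.821 and 1.06 at lactation, 0.917, 0.94 and 0.894 on day 1, 0.997, 0.754 and 0.974 on day 2, 0.736, 0.68 and 0.543 on day 3 and 0.471, 0.752 and 0.507 on day 4. Cdc25a in wild type glands read 0.63 and 0.868 (2 of 3 arrays) at lactation, 0.824, 1.22 and 1.31 on day 1, 0.241 and 0.669 (2 of 3 arrays) on day 2, 0.604, 0.538 and 0.671 on day 3 and 0.579, 0.381 and 0.703 on day 4. The differences in E2F3 +/- glands on days 3 and 4 were -0.78 ± 0.32 (adjusted p = 0.0371) and -0.98 ± 0.32 (adjusted p = 0.0104), and in wild type glands -0.30 ± 0.36 (adjusted p = 0.487) and -0.46 ± 0.36 (adjusted p = 0.263), the wild type groups with 2 lactation arrays. Wild type day 2 holds the lowest reading, 0.241, beside 0.669. Cdc25a lost the E2F3 +/- day 3 call without lactation replicate 1 or 3 or day 3 replicate 2 or 3 (adjusted p up to 0.185). For Cdc25a the E2F3 +/- day 4 call was lost without lactation replicate 1 (adjusted p up to 0.0712).

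Rb1, the pocket protein itself, missed the filter because 2 of the 3 wild type lactation arrays list it at 0, yet it had ratios on the other 28 arrays. Rb1 in E2F3 +/- glands read 2.55, 1.25 and 1.4 at lactation, 6.82, 8.59 and 10.5 on day 1, 7.93, 8.32 and 9.38 on day 2, 7.51, 10.3 and 7.33 on day 3 and 11.3, 13.8 and 9.7 on day 4. Rb1 in wild type glands read 1.06 (1 of 3 arrays) at lactation, 5.11, 6.07 and 3.67 on day 1, 5.85, 4.41 and 6.88 on day 2, 6.72, 5.66 and 6.38 on day 3 and 3.43, 2.49 and 5.44 on day 4. Every E2F3 +/- array of days 1 to 4 stood above the E2F3 +/- lactation arrays, and every wild type involution array stood above the 1 wild type lactation reading. In a test over all probes with 2 values in each of the groups compared, a filter chosen after seeing the data, the E2F3 +/- differences on days 1 and 4 were 2.36 ± 0.29 (adjusted p = 2.96e-06) and 2.80 ± 0.29 (adjusted p = 2.32e-07). On days 2 and 3 they were 2.37 ± 0.29 (adjusted p = 3.29e-06) and 2.33 ± 0.29 (adjusted p = 3.15e-06). With ratios at 0 or 0.01 set to the lowest other ratio of the array, called replacement below, the 4 differences were 2.25, 2.27, 2.21 and 2.82 (adjusted p = 0.0218, 0.0202, 0.0161 and 0.00271). Wild type days could not be tested with that filter, since 1 lactation value was read. After replacement they were called at 5.23, 5.45, 5.54 and 4.77 (adjusted p = 1.36e-05, 5.99e-06, 8.45e-06 and 3.97e-05), differences that rest on 2 of 3 replaced lactation values.

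Cdkn2c encodes p18, an inhibitor of Cdk4 and Cdk6, and was also outside the filter. Cdkn2c in E2F3 +/- glands read 0.276, 0.397 and 0.216 at lactation, 0.368, 0.389 and 0.194 on day 1, 0.415, 0.539 and 0.261 on day 2, 0.501, 0.666 and 0.898 on day 3 and 0.623, 0.718 and 0.487 on day 4. Cdkn2c in wild type glands read 0.291 (1 of 3 arrays) at lactation, 0.189 and 0.13 (2 of 3 arrays) on day 1, 0.656, 0.725 and 0.733 on day 2, 0.714, 0.657 and 0.467 on day 3 and 0.627, 0.804 and 1.04 on day 4. Its group means on days 3 and 4 were the highest of the E2F3 +/- series, though single arrays of day 2 overlapped them, and in wild type glands the high levels began at day 2. With the filter on the groups compared, the E2F3 +/- differences were 1.22 ± 0.32 (adjusted p = 0.00347) on day 3 and 1.07 ± 0.32 (adjusted p = 0.00687) on day 4. After replacement the E2F3 +/- differences on days 3 and 4 were 1.11 and 1.09 (adjusted p = 0.119 and 0.116). Wild type days 2, 3 and 4 were then called at 3.07, 2.80 and 3.24 (adjusted p = 0.000296, 0.00125 and 0.000282), where 2 of 3 lactation values were replaced.

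**Figure D2:**
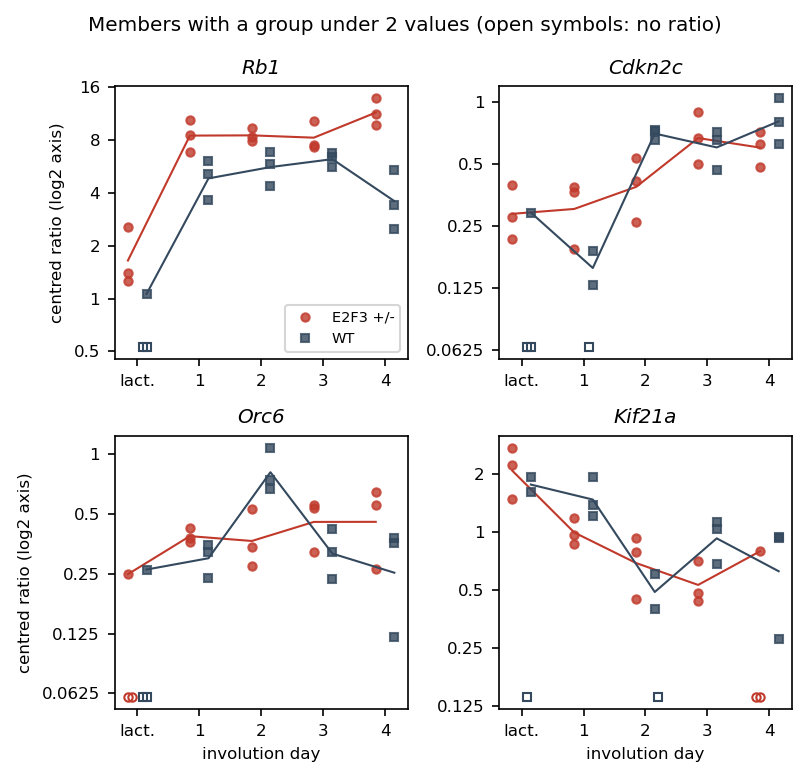
Centred ratio (log2 axis) of 4 members that missed the filter, on each array, at lactation and on involution days 1 to 4, with E2F3 +/- mice as red circles left and wild type mice as blue squares right of each tick; lines join group means of the log2 values and open symbols at the bottom are arrays without a ratio. Rb1 stood at 1.25 to 2.55 on the E2F3 +/- lactation arrays and at 9.7 to 13.8 on those of day 4.

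The replication genes were called in both directions. Of the 9 tested (12 on the array), 4 were called higher and 2 lower on E2F3 +/- day 4, and 4 higher and 3 lower on wild type day 4. Of all probes, 33.2% were called higher and 37.4% lower on E2F3 +/- day 4, and 25.4% and 31% on wild type day 4. Subunits of the same complex were called in opposite directions: Pold1 higher and Pold3 lower, Rfc1 and Rfc2 higher and Rfc5 lower, Orc5 higher and Orc4 lower.

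Pold1, the catalytic subunit of polymerase delta, was called higher on every day but wild type day 1. Pold1 in E2F3 +/- glands read 0.159, 0.169 and 0.143 at lactation, 0.269, 0.227 and 0.315 on day 1, 0.363, 0.382 and 0.393 on day 2, 0.256, 0.448 and 0.275 on day 3 and 0.276, 0.411 and 0.336 on day 4. Pold1 in wild type glands read 0.132 and 0.19 (2 of 3 arrays) at lactation, 0.233, 0.309 and 0.204 on day 1, 0.258, 0.299 and 0.343 on day 2, 0.428, 0.314 and 0.253 on day 3 and 0.32, 0.259 and 0.237 on day 4. All involution arrays of both genotypes lay above the lactation arrays of their genotype. The differences were 0.78, 1.27, 1.01 and 1.10 (adjusted p = 0.0154, 0.000331, 0.00159 and 0.000623) on E2F3 +/- days 1 to 4, SE 0.25, and 0.63, 0.91, 1.03 and 0.77 (adjusted p = 0.076, 0.00662, 0.00529 and 0.0225) on wild type days 1 to 4, SE 0.27. Pold1 lost the E2F3 +/- day 1 call without lactation replicate 3 or day 1 replicate 3 (adjusted p up to 0.0646). For Pold1 the wild type day 2 call was lost without lactation replicate 2 (adjusted p up to 0.109). The wild type day 3 call of Pold1 ended without lactation replicate 2 (adjusted p up to 0.0952). That of wild type day 4 ended without lactation replicate 2 or day 4 replicate 1 (adjusted p up to 0.219).

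Pold3, an accessory subunit of the same polymerase, was called lower on every day but wild type day 3. Pold3 in E2F3 +/- glands read 1.92 and 1.75 (2 of 3 arrays) at lactation, 0.948, 0.81 and 1.17 on day 1, 0.965, 0.891 and 1.14 on day 2, 1.27, 0.671 and 0.726 on day 3 and 0.401, 0.458 and 0.899 on day 4. Pold3 in wild type glands read 1.61, 1.86 and 1.6 at lactation, 0.919, 0.864 and 0.63 on day 1, 0.54, 0.915 and 0.521 on day 2, 1.14, 1.17 and 1.38 on day 3 and 0.825, 0.743 and 0.993 on day 4. No involution array reached the lactation range of its genotype. The differences were -0.93, -0.88, -1.10 and -1.74 (adjusted p = 0.0243, 0.0293, 0.00573 and 0.000111) on E2F3 +/- days 1 to 4, SE 0.32, and -1.09, -1.41, -0.46 and -0.99 (adjusted p = 0.00506, 0.000293, 0.188 and 0.00657) on wild type days 1 to 4, SE 0.29. The E2F3 +/- direction rests on how ratios at 0 are read: lactation replicate 2 lists Pold3 at 0, and with that ratio set to the lowest other ratio of its array the 4 differences became 1.09, 1.15, 0.91 and 0.41 and none was called. Pold3 lost the E2F3 +/- day 1 call without lactation replicate 1 or 3 or day 1 replicate 1 or 2 (adjusted p up to 0.106). For Pold3 the E2F3 +/- day 2 call was lost without lactation replicate 1 or 3 or day 2 replicate 1 or 2 (adjusted p up to 0.12).

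The clamp loader subunits Rfc1, its large subunit, and Rfc2 were called higher, and Rfc5 lower, each on some of the days. Rfc2 in E2F3 +/- glands read 0.3, 0.384 and 0.383 at lactation, 0.692, 0.675 and 0.59 on day 1, 0.55, 0.768 and 0.475 on day 2, 0.603, 0.613 and 0.634 on day 3 and 0.546, 0.41 and 0.613 on day 4. Rfc2 in wild type glands read 0.367, 0.222 and 0.393 at lactation, 0.462, 0.663 and 0.426 on day 1, 0.616, 0.979 and 0.5 on day 2, 0.609, 0.608 and 0.523 on day 3 and 0.503, 0.586 and 0.559 on day 4. All involution arrays of both genotypes lay above lactation for Rfc2. Its differences were 0.88, 0.73, 0.80 and 0.55 (adjusted p = 0.00846, 0.0237, 0.00938 and 0.0581) on E2F3 +/- days 1 to 4 and 0.68, 1.08, 0.86 and 0.79 (adjusted p = 0.0397, 0.00101, 0.0099 and 0.0125) on wild type days 1 to 4, SE 0.25. Rfc2 lost the E2F3 +/- day 2 call without lactation replicate 1 or day 2 replicate 2 (adjusted p up to 0.128). For Rfc2 the wild type day 1 call was lost without lactation replicate 2 or day 1 replicate 1 or 2 (adjusted p up to 0.239). The wild type day 3 call of Rfc2 ended without lactation replicate 2 (adjusted p up to 0.0868). That of wild type day 4 ended without lactation replicate 2 (adjusted p up to 0.1).

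Rfc1 was called later, at 0.83 ± 0.25 (adjusted p = 0.00685) on E2F3 +/- day 3, 0.73 ± 0.25 (adjusted p = 0.013) on E2F3 +/- day 4 and 0.61 ± 0.25 (adjusted p = 0.0394) on wild type day 4. Rfc1 lost the E2F3 +/- day 4 call without lactation replicate 2 (adjusted p up to 0.0607). For Rfc1 the wild type day 4 call was lost without lactation replicate 1 or 2 or day 4 replicate 1 or 3 (adjusted p up to 0.162). Rfc5 in E2F3 +/- glands read 0.338, 0.391 and 0.413 at lactation, 0.38, 0.225 and 0.208 on day 1, 0.196, 0.261 and 0.248 on day 2, 0.2, 0.178 and 0.249 on day 3 and 0.218, 0.186 and 0.251 on day 4. Rfc5 in wild type glands read 0.373, 0.368 and 0.322 at lactation, 0.172, 0.259 and 0.176 on day 1, 0.268, 0.447 and 0.182 on day 2, 0.267, 0.153 and 0.205 on day 3 and 0.237, 0.162 and 0.183 on day 4. Rfc5 arrays on E2F3 +/- days 2, 3 and 4 all lay below lactation, as did those of wild type days 1, 3 and 4, and wild type day 2 overlapped. Its differences were -0.54, -0.70, -0.87 and -0.81 (adjusted p = 0.118, 0.0484, 0.0115 and 0.0157) on E2F3 +/- days and -0.83, -0.34, -0.80 and -0.89 (adjusted p = 0.0259, 0.296, 0.0309 and 0.0128) on wild type days, SE 0.29. Rfc5 lost the E2F3 +/- day 2 call whichever of the 6 arrays was left out (adjusted p up to 0.159). For Rfc5 the E2F3 +/- day 3 call was lost without day 3 replicate 2 (adjusted p up to 0.05). The E2F3 +/- day 4 call of Rfc5 ended without day 4 replicate 2 (adjusted p up to 0.0656). That of wild type day 1 ended without lactation replicate 1 or 2 or day 1 replicate 1 or 3 (adjusted p up to 0.0968). Likewise wild type day 3 lost its call without lactation replicate 1 or 2 or day 3 replicate 2 or 3 (adjusted p up to 0.153). For wild type day 4 it was lost without day 4 replicate 2 (adjusted p up to 0.0517).

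Orc4 and Orc5 belong to the complex that marks origins. Orc5 in E2F3 +/- glands read 0.479, 0.734 and 0.636 at lactation, 1.34, 1.09 and 0.739 on day 1, 0.821, 0.879 and 0.673 on day 2, 0.658, 1.41 and 0.822 on day 3 and 1.17, 1.73 and 0.939 on day 4. Orc5 in wild type glands read 0.355 and 0.676 (2 of 3 arrays) at lactation, 1.12, 1.05 and 1.04 on day 1, 0.906, 1.31 and 1.41 on day 2, 0.591, 0.639 and 0.621 on day 3 and 0.69, 1.07 and 1.2 on day 4. Orc5 was called higher on E2F3 +/- day 4, at 1.03 ± 0.31 (adjusted p = 0.00592), and on wild type days 1, 2 and 4, at 1.13, 1.28 and 0.97 (adjusted p = 0.0136, 0.00312 and 0.022). Orc5 lost the wild type day 1 call without lactation replicate 2 (adjusted p up to 0.237). For Orc5 the wild type day 2 call was lost without lactation replicate 2 (adjusted p up to 0.0986). The wild type day 4 call of Orc5 ended without lactation replicate 2 or day 4 replicate 2 or 3 (adjusted p up to 0.308). Orc4 in E2F3 +/- glands read 0.949, 0.691 and 0.748 at lactation, 0.37, 0.374 and 0.518 on day 1, 0.332, 0.296 and 0.214 on day 2, 0.355, 0.266 and 0.317 on day 3 and 0.399 and 0.439 (2 of 3 arrays) on day 4. Orc4 in wild type glands read 0.536 and 0.813 (2 of 3 arrays) at lactation, 0.588, 0.29 and 0.555 on day 1, 0.691, 0.305 and 0.201 on day 2, 0.462, 0.31 and 0.417 on day 3 and 0.182, 0.476 and 0.355 on day 4. Every E2F3 +/- involution array lay below the E2F3 +/- lactation arrays. Orc4 was called lower on E2F3 +/- days 2 and 3, at -1.52 and -1.34 (adjusted p = 0.00328 and 0.00505), and on wild type day 4, at -1.07 ± 0.43 (adjusted p = 0.0365). Each of these Orc4 calls was lost after replacement. Orc4 lost the wild type day 4 call without lactation replicate 3 or day 4 replicate 1 (adjusted p up to 0.23).

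Mcm4, a subunit of the replicative helicase, was called higher on E2F3 +/- day 3, at 1.05 ± 0.43 (adjusted p = 0.0344), E2F3 +/- day 4, at 1.25 ± 0.43 (adjusted p = 0.0122), and wild type day 2, at 1.02 ± 0.43 (adjusted p = 0.0379). Mcm4 in E2F3 +/- glands read 0.127, 0.0514 and 0.189 at lactation, 0.153, 0.116 and 0.173 on day 1, 0.183, 0.2 and 0.117 on day 2, 0.115, 0.336 and 0.282 on day 3 and 0.285, 0.318 and 0.184 on day 4. Mcm4 in wild type glands read 0.226, 0.163 and 0.168 at lactation, 0.118, 0.128 and 0.122 on day 1, 0.2, 0.529 and 0.494 on day 2, 0.157, 0.209 and 0.125 on day 3 and 0.167, 0.266 and 0.208 on day 4. E2F3 +/- lactation replicate 2 gave the lowest reading, 0.0514, and wild type day 2 replicates 2 and 3 the highest. Mcm4 lost the E2F3 +/- day 3 call without lactation replicate 2 or day 3 replicate 2 or 3 (adjusted p up to 0.276). For Mcm4 the E2F3 +/- day 4 call was lost without lactation replicate 2 or day 4 replicate 2 (adjusted p up to 0.13). The wild type day 2 call of Mcm4 ended without lactation replicate 2 or 3 or day 2 replicate 2 or 3 (adjusted p up to 0.151).

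Pole4, an accessory subunit of polymerase epsilon with E2F letters in the promoter shown above, was called on no day. It had ratios on 2 of 3 lactation arrays in each genotype, and its differences ran from -1.01 to 0.61 with SE of 0.49. Without the 2 arrays that stood apart, the E2F3 +/- day 4 difference was 1.03 (adjusted p = 0.0475), against 0.61 ± 0.49 (adjusted p = 0.263) with them. Pole, the catalytic subunit of polymerase epsilon, had ratios on 23 arrays, from 0.146 to 1.38. Wild type lactation and day 2 each had Pole ratios on 2 of 3 arrays. With the filter on the groups compared Pole was lower on wild type days 2 and 4, at -1.30 ± 0.50 (adjusted p = 0.0287) and -1.57 ± 0.45 (adjusted p = 0.00845). After replacement these were -1.17 and -0.03 (adjusted p = 0.557 and 0.989). Orc6 had ratios on 26 arrays, and 1 of 3 lactation arrays in either genotype; the highest 3 of all were those of wild type day 2, at 1.07, 0.667 and 0.741. Replacement of ratios at 0 or 0.01 gave Orc6 calls on E2F3 +/- days 1 to 4, at 2.90, 2.84, 3.14 and 3.27 (adjusted p = 0.00561, 0.00614, 0.00209 and 0.00106). It gave calls on wild type days 2 and 3, at 3.32 and 1.91 (adjusted p = 0.00098 and 0.0495). In both genotypes 2 of 3 lactation values were replaced. Cdc7, the kinase that fires licensed origins, had ratios on 6 arrays, 0.175, 0.539 and 0.482 on E2F3 +/- day 3, 0.471 (1 of 3 arrays) on wild type day 1 and 0.487 and 0.42 (2 of 3 arrays) on wild type day 4. No lactation array read it, so a difference could be formed only after replacement. The difference was then 3.97 (adjusted p = 0.00118) on E2F3 +/- day 3 and 2.18 (adjusted p = 0.043) on wild type day 4, values that depend on the replaced lactation ratios.

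**Figure D3:**
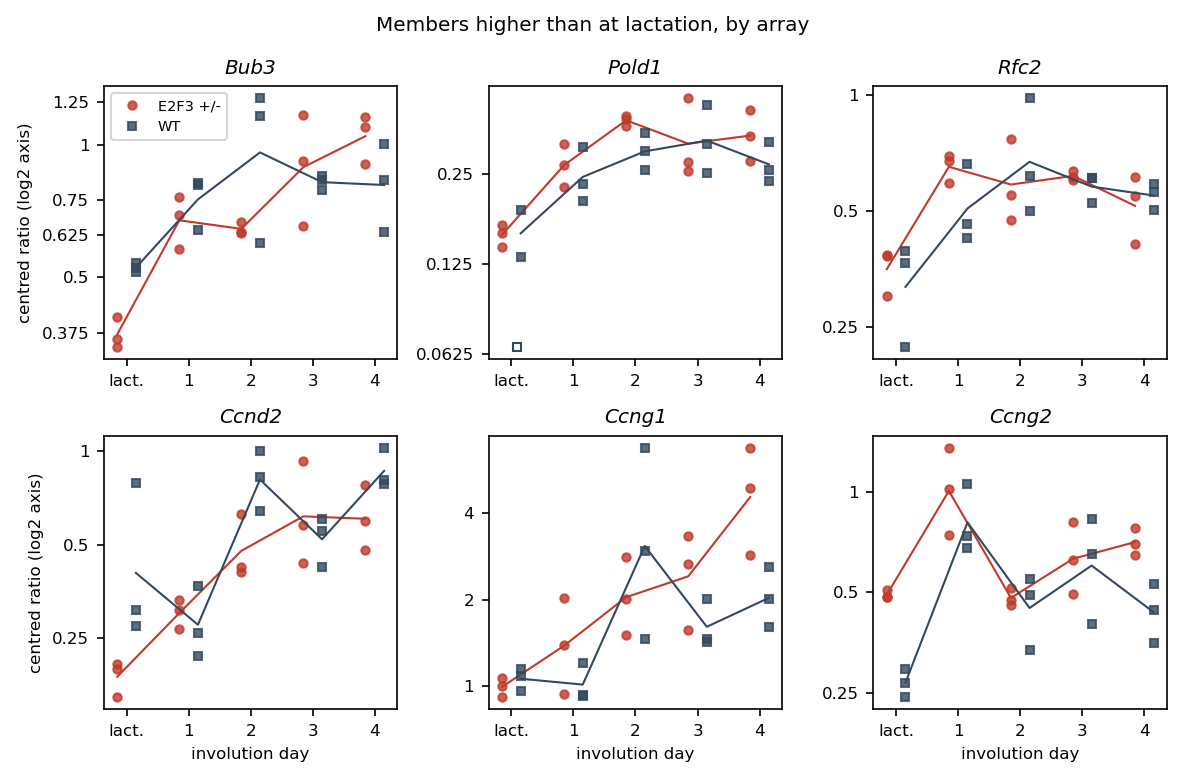
Centred ratio (log2 axis) of 6 members called higher, on each array, at lactation and on involution days 1 to 4, with E2F3 +/- mice as red circles left and wild type mice as blue squares right of each tick; lines join group means of the log2 values and an open symbol is an array without a ratio. All involution arrays of Pold1 and Rfc2 lie above the lactation arrays of their genotype, and the group means of Ccng2 peak on day 1.

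Bub3, a spindle checkpoint protein, was called higher on every day but wild type day 1. Bub3 in E2F3 +/- glands read 0.406, 0.363 and 0.348 at lactation, 0.761, 0.691 and 0.581 on day 1, 0.669, 0.632 and 0.632 on day 2, 0.655, 1.17 and 0.917 on day 3 and 1.09, 1.15 and 0.904 on day 4. Bub3 in wild type glands read 0.538, 0.514 and 0.526 at lactation, 0.811, 0.816 and 0.64 on day 1, 0.598, 1.16 and 1.27 on day 2, 0.787, 0.849 and 0.83 on day 3 and 0.635, 1 and 0.833 on day 4. All involution arrays lay above the lactation arrays of their genotype. The differences were 0.86, 0.79, 1.26 and 1.49 (adjusted p = 0.00765, 0.0116, 0.000212 and 2.79e-05) on E2F3 +/- days 1 to 4 and 0.51, 0.87, 0.64 and 0.62 (adjusted p = 0.0978, 0.00387, 0.0394 and 0.0337) on wild type days 1 to 4, SE 0.24. The E2F3 +/- calls of all 4 days held whichever array was left out. Bub3 lost the wild type day 3 call whichever of the 6 arrays was left out (adjusted p up to 0.0965). For Bub3 the wild type day 4 call was lost without lactation replicate 1, 2 or 3 or day 4 replicate 2 or 3 (adjusted p up to 0.14).

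Ccna2, cyclin A2 of S phase and mitosis, was called lower on 2 of the 8 days compared, with ratios from 0.0197 to 0.278 over all arrays. Its median centred ratio was 0.041, near the 0.01 treated as missing, and 5 arrays list it at 0. Its differences therefore compare readings near the lower limit. Ccna2 in E2F3 +/- glands read 0.11 and 0.0861 (2 of 3 arrays) at lactation, 0.0668, 0.0377 and 0.0298 on day 1, 0.0484, 0.0414 and 0.0416 on day 2, 0.0197, 0.0315 and 0.0409 on day 3 and 0.0521, 0.033 and 0.0326 on day 4. Ccna2 in wild type glands read 0.061 and 0.085 (2 of 3 arrays) at lactation, 0.0429 and 0.0219 (2 of 3 arrays) on day 1, 0.0376, 0.278 and 0.0413 on day 2, 0.0354 and 0.0318 (2 of 3 arrays) on day 3 and 0.028 and 0.021 (2 of 3 arrays) on day 4. Every E2F3 +/- involution array lay below the 2 lactation readings, and wild type day 2 replicate 2, at 0.278, was the highest of all. It was called lower on E2F3 +/- day 3, at -1.73 ± 0.60 (adjusted p = 0.0176), and on wild type day 4, at -1.57 ± 0.65 (adjusted p = 0.0476). Ccna2 lost the E2F3 +/- day 3 call without lactation replicate 1 or day 3 replicate 1 (adjusted p up to 0.0905). For Ccna2 the wild type day 4 call was lost whichever of the 6 arrays was left out (adjusted p up to 0.178). Without the 2 arrays that stood apart, the E2F3 +/- day 3 difference was -1.44 (adjusted p = 0.0554). Cdc27, a subunit of the anaphase-promoting complex, missed the filter; with the filter on the groups compared it was lower on E2F3 +/- days 2 and 3, at -0.99 ± 0.39 (adjusted p = 0.0476) and -1.15 ± 0.39 (adjusted p = 0.0166). After replacement they were -1.09 and -1.27 (adjusted p = 0.457 and 0.338).

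The transport kinesin Kif13b had the largest differences of the tested members. Kif13b in E2F3 +/- glands read 17.2, 9 and 10.2 at lactation, 2.87, 2.61 and 2.94 on day 1, 1.14, 1.66 and 1.04 on day 2, 1.15, 0.475 and 0.493 on day 3 and 0.433, 0.413 and 0.988 on day 4. Kif13b in wild type glands read 30.4, 13.6 and 3.74 at lactation, 4.47, 4.65 and 2.21 on day 1, 0.526, 0.675 and 0.514 on day 2, 1.08, 1.04 and 1.1 on day 3 and 0.854, 1.16 and 0.576 on day 4. All involution arrays in E2F3 +/- glands lay below lactation; in wild type glands those of days 2, 3 and 4 did, and day 1 overlapped lactation replicate 3 at 3.74. By day 4 it was 20.7-fold lower in E2F3 +/- glands and 13.9-fold lower in wild type glands. The log2 differences were -2.05, -3.22, -4.17 and -4.37 (adjusted p = 0.00295, 3.73e-05, 1.23e-06 and 4.55e-07) on E2F3 +/- days 1 to 4 and -1.69, -4.35, -3.44 and -3.80 (adjusted p = 0.0117, 4.4e-07, 1.65e-05 and 3.63e-06) on wild type days 1 to 4, SE 0.51. Kif13b lost the wild type day 1 call without lactation replicate 1 or day 1 replicate 3 (adjusted p up to 0.121).

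Kif5b, a heavy chain of conventional kinesin, was called lower on 3 of the 8 days compared. Kif5b in E2F3 +/- glands read 1.23, 1.49 and 1.53 at lactation, 0.569, 0.84 and 1.37 on day 1, 0.413, 2.07 and 0.762 on day 2, 0.88, 0.327 and 0.556 on day 3 and 0.925, 0.367 and 0.929 on day 4. Kif5b in wild type glands read 1.99, 2.07 and 2.1 at lactation, 1.22, 1.24 and 1.47 on day 1, 0.567, 0.704 and 0.239 on day 2, 0.94, 0.773 and 1.28 on day 3 and 0.712, 0.972 and 0.901 on day 4. The wild type involution arrays all lay below the 3 wild type lactation arrays, and the E2F3 +/- arrays of day 2 ranged most widely. It was called on E2F3 +/- day 3, at -1.38 ± 0.47 (adjusted p = 0.0154), and on wild type days 2 and 4, at -2.17 and -1.26 (adjusted p = 0.000548 and 0.0282). Without the 2 arrays that stood apart, the E2F3 +/- day 4 difference was -1.28 (adjusted p = 0.0281), against -1.05 ± 0.47 (adjusted p = 0.0514) with them. Kif5b lost the E2F3 +/- day 3 call without day 3 replicate 2 (adjusted p up to 0.0963). For Kif5b the wild type day 4 call was lost without lactation replicate 1, 2 or 3 or day 4 replicate 1 or 3 (adjusted p up to 0.0832). Kif21a missed the filter, and wild type lactation and day 2 each had ratios on 2 of 3 arrays. With the filter on the groups compared Kif21a was lower on E2F3 +/- days 1, 2 and 3, at -1.06, -1.59 and -1.97 (adjusted p = 0.0376, 0.00364 and 0.000461), and on wild type days 2 and 4, at -1.85 and -1.49 (adjusted p = 0.00291 and 0.00873). None of these Kif21a calls held after replacement. The differences were then -1.18, -1.69 and -2.09 (adjusted p = 0.469, 0.308 and 0.165) on E2F3 +/- days 1, 2 and 3 and -1.91 and 0.01 (adjusted p = 0.209 and 0.993) on wild type days 2 and 4. E2F3 +/- day 4 was then called at -5.08 (adjusted p = 0.00236). Kif3c had ratios on 20 arrays, and 8 of its 15 ratios from 1 to 100 as deposited fell on steps of 0.1 (within 1e-06 of a step). Kif3c was called after replacement on E2F3 +/- day 4, at 4.52 (adjusted p = 0.032).

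**Figure D4:**
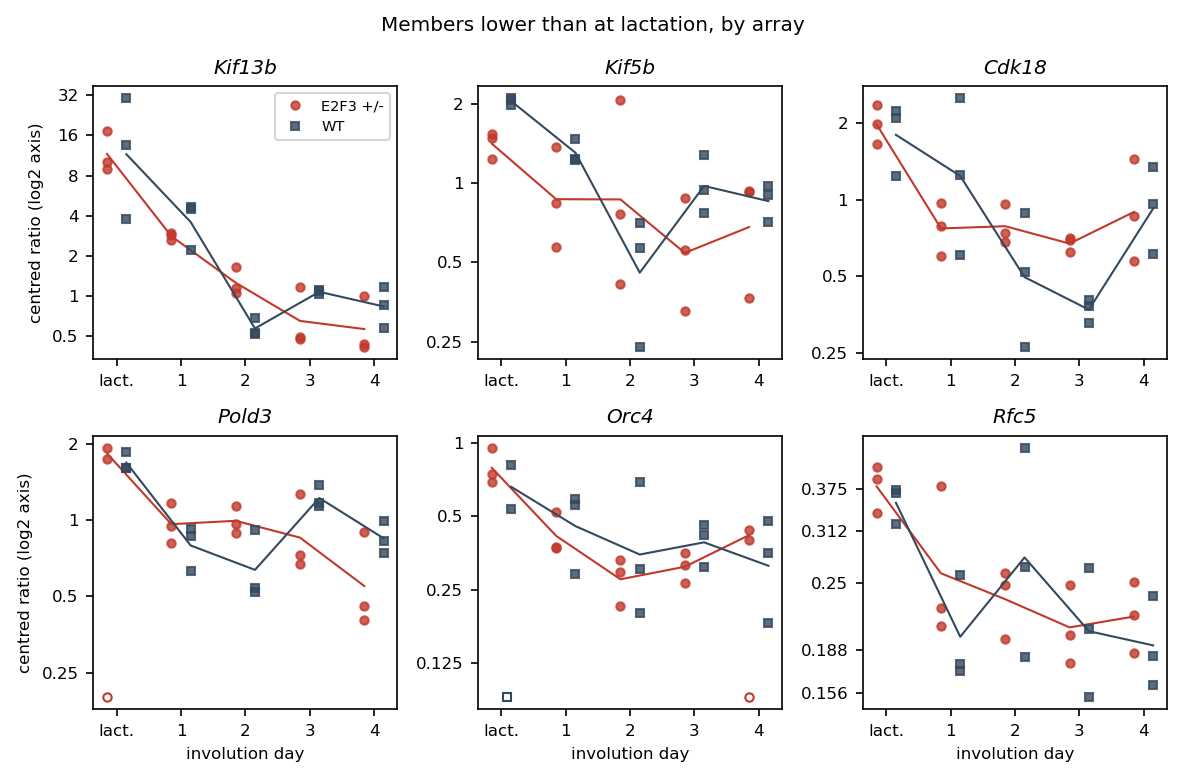
Centred ratio (log2 axis) of 6 members called lower, on each array, at lactation and on involution days 1 to 4, with E2F3 +/- mice as red circles left and wild type mice as blue squares right of each tick; lines join group means of the log2 values and an open symbol is an array without a ratio. Kif13b stood at 9 to 17.2 on the E2F3 +/- lactation arrays and at 0.413 to 0.988 on those of day 4.

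Cyclin G1 (Ccng1), a target of p53, was called higher on E2F3 +/- days 2 to 4 and on wild type day 2. Ccng1 in E2F3 +/- glands read 1.07, 0.999 and 0.918 at lactation, 2.02, 1.39 and 0.938 on day 1, 2.81, 2 and 1.5 on day 2, 1.57, 2.67 and 3.34 on day 3 and 4.9, 6.73 and 2.86 on day 4. Ccng1 in wild type glands read 0.958, 1.15 and 1.08 at lactation, 1.2, 0.933 and 0.921 on day 1, 2.96, 1.46 and 6.73 on day 2, 2.01, 1.46 and 1.42 on day 3 and 2.01, 1.6 and 2.6 on day 4. The 3 E2F3 +/- day 4 arrays all lay above the 3 wild type day 4 arrays. The differences from lactation were 0.48, 1.04, 1.28 and 2.20 (adjusted p = 0.324, 0.041, 0.00975 and 0.000106) on E2F3 +/- days 1 to 4 and -0.07, 1.54, 0.60 and 0.94 (adjusted p = 0.9, 0.00255, 0.225 and 0.0529) on wild type days 1 to 4, SE 0.41. Ccng1 lost the E2F3 +/- day 2 call without lactation replicate 1, 2 or 3 or day 2 replicate 1 or 2 (adjusted p up to 0.159). For Ccng1 the E2F3 +/- day 3 call was lost without day 3 replicate 3 (adjusted p up to 0.0545).

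Cyclin G2 (Ccng2), which is known to rise in cells that leave the cycle, had its highest group means on day 1. Ccng2 in E2F3 +/- glands read 0.485, 0.506 and 0.482 at lactation, 0.739, 1.35 and 1.02 on day 1, 0.456, 0.472 and 0.514 on day 2, 0.492, 0.813 and 0.622 on day 3 and 0.698, 0.647 and 0.779 on day 4. Ccng2 in wild type glands read 0.295, 0.267 and 0.243 at lactation, 0.68, 0.738 and 1.05 on day 1, 0.335, 0.489 and 0.548 on day 2, 0.649, 0.83 and 0.402 on day 3 and 0.351, 0.53 and 0.442 on day 4. All wild type involution arrays lay above wild type lactation; in E2F3 +/- glands, days 2 and 3 overlapped lactation. The differences were 1.03, -0.03, 0.36 and 0.52 (adjusted p = 0.00398, 0.924, 0.227 and 0.081) on E2F3 +/- days 1 to 4 and 1.60, 0.74, 1.17 and 0.70 (adjusted p = 6.04e-05, 0.0183, 0.00157 and 0.0295) on wild type days 1 to 4, SE 0.27. The day 1 calls of both genotypes held whichever array was left out. Ccng2 lost the wild type day 2 call without lactation replicate 3 or day 2 replicate 2 or 3 (adjusted p up to 0.0835). For Ccng2 the wild type day 4 call was lost without lactation replicate 2 or 3 or day 4 replicate 2 or 3 (adjusted p up to 0.114).

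Cdk18, a kinase of the PCTAIRE family, was called lower on all E2F3 +/- days and on wild type days 2 and 3. Cdk18 in E2F3 +/- glands read 1.66, 2.36 and 1.98 at lactation, 0.968, 0.603 and 0.788 on day 1, 0.743, 0.685 and 0.96 on day 2, 0.693, 0.707 and 0.623 on day 3 and 0.573, 0.865 and 1.45 on day 4. Cdk18 in wild type glands read 1.24, 2.24 and 2.1 at lactation, 2.5, 0.607 and 1.26 on day 1, 0.521, 0.264 and 0.891 on day 2, 0.327, 0.405 and 0.383 on day 3 and 1.34, 0.959 and 0.613 on day 4. No E2F3 +/- involution array reached E2F3 +/- lactation, and wild type day 1 spread across the lactation range. The differences were -1.36, -1.33, -1.56 and -1.14 (adjusted p = 0.0153, 0.0162, 0.00414 and 0.0221) on E2F3 +/- days 1 to 4 and -0.54, -1.86, -2.28 and -0.96 (adjusted p = 0.326, 0.000898, 0.000258 and 0.0596) on wild type days 1 to 4, SE 0.43. Cdk18 lost the E2F3 +/- day 1 call without lactation replicate 2 or day 1 replicate 2 (adjusted p up to 0.0602). For Cdk18 the E2F3 +/- day 2 call was lost without lactation replicate 2 or day 2 replicate 2 (adjusted p up to 0.0588). The E2F3 +/- day 4 call of Cdk18 ended without lactation replicate 2 or day 4 replicate 1 or 2 (adjusted p up to 0.127).

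Ccnl1 and Cdc42ep2 were called higher on some of the days. The tested Ccnl1 probe was called on E2F3 +/- day 3, at 0.89 ± 0.32 (adjusted p = 0.0184), and on wild type days 2, 3 and 4, at 1.29, 0.95 and 0.76 (adjusted p = 0.00142, 0.0212 and 0.0444). Ccnl1 lost the E2F3 +/- day 3 call without lactation replicate 1 or 3 or day 3 replicate 2 (adjusted p up to 0.133). For Ccnl1 the wild type day 3 call was lost without lactation replicate 1 or 2 or day 3 replicate 1 (adjusted p up to 0.0874). The wild type day 4 call of Ccnl1 ended whichever of the 6 arrays was left out (adjusted p up to 0.106). The other Ccnl1 probe missed the filter. It read 0.612, 0.151 and 0.328 on E2F3 +/- day 3 against 0.433, 0.54 and 0.533 at lactation, where the tested probe read 1.11, 2.06 and 1.09 on day 3 against 0.661, 0.944 and 0.635 at lactation, so the probes of this gene disagree. After replacement the other probe was called on E2F3 +/- day 4, at -2.11 (adjusted p = 0.0422), and on wild type days 1 and 4, at 2.51 and 2.28 (adjusted p = 0.0325 and 0.0366). Cdc42ep2 was called on E2F3 +/- days 3 and 4, at 1.14 and 1.27 (adjusted p = 0.0105 and 0.00427), and on wild type day 2, at 1.02 ± 0.37 (adjusted p = 0.0188). Cdc42ep2 lost the E2F3 +/- day 3 call without day 3 replicate 2 (adjusted p up to 0.0532). For Cdc42ep2 the wild type day 2 call was lost without day 2 replicate 2 or 3 (adjusted p up to 0.0685).

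Some calls turned on the handling of the arrays. Without centring, those lost were Rfc5 (E2F3 +/- days 2 and 4 and wild type days 1 and 3), Cdc25a (E2F3 +/- days 3 and 4), Cdk18 (E2F3 +/- day 4), Orc4 (wild type day 4) and Ccna2 (wild type day 4). Under quantile normalization, those lost were Pold1 (E2F3 +/- day 1), Mcm4 (E2F3 +/- day 3), Cdc25a (E2F3 +/- day 3), Rfc5 (E2F3 +/- day 4 and wild type day 4) and Ccna2 (wild type day 4). In fits of the 2 groups alone, those lost were Mcm4 (E2F3 +/- days 3 and 4 and wild type day 2), Cdc25a (E2F3 +/- day 3), Rfc2 (wild type day 1), Kif13b (wild type day 1), Ccnd2 (wild type day 2), Bub3 (wild type day 2), Ccng2 (wild type day 2), Pold1 (wild type days 2 and 4), Orc5 (wild type day 4), Rfc1 (wild type day 4) and Orc4 (wild type day 4). With array weights, those lost were Mcm4 (wild type day 2) and Ccng2 (wild type day 2). With ratios at 0 or 0.01 set to the lowest other ratio of the array, those lost were Pold3 (E2F3 +/- days 1, 2, 3 and 4 and wild type days 1, 2 and 4), Pold1 (E2F3 +/- day 1), Ccng1 (E2F3 +/- day 2), Rfc2 (E2F3 +/- day 2 and wild type day 1), Orc4 (E2F3 +/- days 2 and 3 and wild type day 4), Mcm4 (E2F3 +/- day 3 and wild type day 2), Ccna2 (E2F3 +/- day 3), Cdc25a (E2F3 +/- days 3 and 4), Orc5 (E2F3 +/- day 4), Cdc42ep2 (wild type day 2), Ccnl1 (wild type days 3 and 4), Bub3 (wild type days 3 and 4), Rfc1 (wild type day 4) and Ccng2 (wild type day 4).

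Between genotypes, 1 of the 21 tested members differed, Cdc25a on day 2. At lactation 0 members were called (0.379% of all probes were), on day 1 0 (0.659%), on day 2 1 (12.7%), on day 3 0 (0%), on day 4 0 (1.12%) and over all times 0 (0.619%), by limma. At an unadjusted p under 0.05, 3, 0, 7, 0 and 4 members passed at the 5 times and 4 over all times. Of all probes, 7.47%, 10.6%, 31.6%, 13.8% and 16.8% passed so at the 5 times and 13.2% over all times. The medians over members and over all probes were -0.20 and 0.04 on day 2, and 0.06 and -0.01 over all times. The 95% intervals of the member differences over all times were 0.22 to 0.56 wide to either side on the log2 scale.

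Cdc25a read 0.997, 0.754 and 0.974 in E2F3 +/- glands on day 2, against 0.241 and 0.669 (2 of 3 arrays) in wild type glands. The 3 E2F3 +/- arrays lay above both wild type readings, and the log2 difference was 1.17 ± 0.36 (adjusted p = 0.0368). Leaving out wild type day 2 replicate 2, or any 1 of the 3 E2F3 +/- arrays, ended the call (adjusted p up to 0.435). It was also lost without centring, under quantile normalization, with ratios at 0 or 0.01 set to the lowest other ratio, with array weights and in a fit of the 2 groups alone. Mcm4 on day 2 read 0.183, 0.2 and 0.117 in E2F3 +/- glands, against 0.2, 0.529 and 0.494 in wild type glands, a difference of -1.20 ± 0.43 (adjusted p = 0.0614). Bub3 read 0.669, 0.632 and 0.632 in E2F3 +/- glands, against 0.598, 1.16 and 1.27 in wild type glands, a difference of -0.58 ± 0.24 (adjusted p = 0.108). Both pairs of groups overlapped through wild type replicate 1. Without that array the differences were -1.65 (adjusted p = 0.0163) for Mcm4 and -0.92 (adjusted p = 0.0112) for Bub3. The array was not among those that stood apart from their groups. It correlated at 0.62 with the rest of its group, against 0.557 for replicate 2 and 0.495 for replicate 3. The share of all probes called without it is not given, so these calls are not read as particular to the members. The other day 2 differences with an unadjusted p under 0.05 were Ccnd2, Cdc42ep2, Kif13b and Pold3, at -0.76 ± 0.33 (adjusted p = 0.116), -0.85 ± 0.37 (adjusted p = 0.113), 1.14 ± 0.51 (adjusted p = 0.125) and 0.64 ± 0.29 (adjusted p = 0.126).

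Markers of other cell types also differed between genotypes on day 2. Of 10 macrophage probes 7 were called lower and 1 higher in E2F3 +/- glands (median log2 difference -1.96), of 4 fibroblast probes 3 lower (-1.80), of 4 milk probes 3 higher (2.40) and of 4 adipocyte probes 0 (-0.72). The summed centred ratio was 79.4 to 104 in E2F3 +/- glands and 131 to 715 in wild type glands for macrophages. It was 3.46 to 5.95 in E2F3 +/- glands and 10.4 to 25.7 in wild type glands for fibroblasts. For milk genes it was 6405 to 9211 in E2F3 +/- glands and 692 to 3858 in wild type glands. At the other times and over all times no probe of these 4 lists was called. The part of these markers in the day 2 differences of the members was not tested.

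On day 4 the members with the lowest unadjusted p were Ccng1, Cdk4, Ccng2 and Pold3. Ccng1 was 1.17 ± 0.41 (adjusted p = 0.147), Cdk4 -1.29 ± 0.49 (adjusted p = 0.188), Ccng2 0.70 ± 0.27 (adjusted p = 0.192) and Pold3 -0.63 ± 0.29 (adjusted p = 0.271), E2F3 +/- minus wild type. Cdk4 read 0.0839, 0.0833 and 0.34 in E2F3 +/- glands, against 0.299, 0.372 and 0.311 in wild type glands. Pold3 read 0.401, 0.458 and 0.899 in E2F3 +/- glands, against 0.825, 0.743 and 0.993 in wild type glands. E2F3 +/- replicate 3, the third reading, stood with wild type in both. Without it Ccng1, Cdk4 and Pold3 were called at 1.5, -1.96 and -0.98 (adjusted p = 0.0200, 0.00500 and 0.0187). The share of all probes called without it is not given, so these calls are not read as particular to the members. Rb1, outside the filter, read 11.3, 13.8 and 9.7 in E2F3 +/- glands on day 4, against 3.43, 2.49 and 5.44 in wild type glands, and the groups did not overlap. With the filter on the groups compared the difference was 1.68 ± 0.30 (adjusted p = 0.0192), the only such call of a member outside the filter; with ratios at 0 set to the lowest other ratio it was 1.75 ± 0.72 (adjusted p = 0.248). That setting called Rb1 between genotypes at lactation instead, at 3.71 ± 0.72 (adjusted p = 0.0104), where 2 of 3 wild type values are so set.

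Over all times, Ccng2 was 0.41 ± 0.12 (adjusted p = 0.102), higher in E2F3 +/- glands at each of the 5 times but not past the threshold. At lactation it read 0.485, 0.506 and 0.482 in E2F3 +/- glands, against 0.295, 0.267 and 0.243 in wild type glands. Ccnd2 was -0.40 ± 0.15 (adjusted p = 0.211) over all times and -1.11 ± 0.33 (adjusted p = 0.201) at lactation, where 0.162, 0.206 and 0.198 were read in E2F3 +/- glands, against 0.791, 0.273 and 0.308 in wild type glands. Ccnl1 and Cdc25a were 0.37 ± 0.14 (adjusted p = 0.248) and 0.34 ± 0.15 (adjusted p = 0.336) over all times. Without the 2 arrays that stood apart, Ccng2 and Cdk4 were called over all times, at 0.43 (adjusted p = 0.0291) and -0.63 (adjusted p = 0.0293), with 9.98% of all probes called, and Pold3 was called on day 3, at -0.81 (adjusted p = 0.0281). The share of all probes called on day 3 in that fit is not given.

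**Figure D5:**
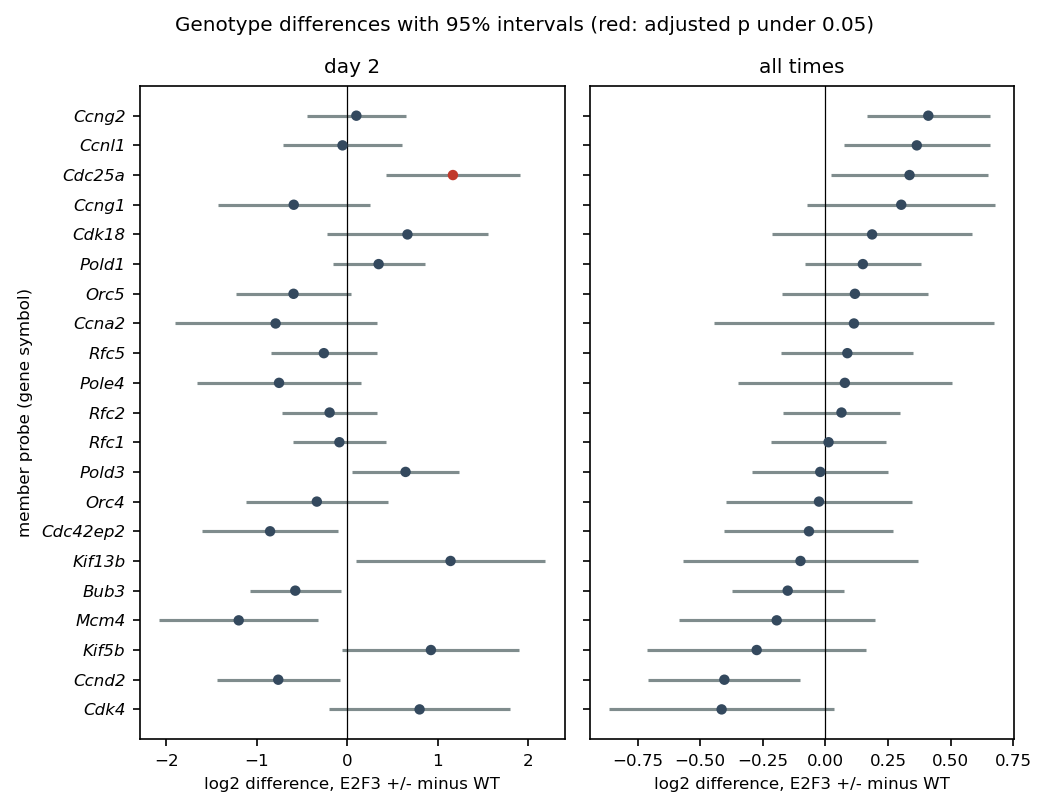
Log2 difference between E2F3 +/- and wild type glands for each tested member on day 2 (left) and over all times (right), with 95% intervals from limma; points right of 0 are higher in E2F3 +/- glands and red marks adjusted p under 0.05. Cdc25a on day 2, at 1.17, is the 1 red point.

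The responses to involution were set against each other by the interaction of genotype and time. None of the 21 members passed the F test of genotype by time by limma (3 at an unadjusted p under 0.05, Pold3, Ccnd2 and Mcm4), while 6.05% of all probes did. Of all probes, 31.2% had an unadjusted p under 0.05 in that F test. The day-by-day interactions called 0 members on each day, with 1, 1, 3 and 2 at an unadjusted p under 0.05 on days 1 to 4. Of all probes, 0.379%, 0%, 0.24% and 0.319% were called, and 8.2%, 16.4%, 8.68% and 10.9% had an unadjusted p under 0.05. So a call on a day in 1 genotype alone, as for Rfc2 on day 4 or Ccnd2 on day 3, is not shown to be a difference between genotypes. The count of the F test depended on 2 arrays: without E2F3 +/- day 3 replicate 1 and day 4 replicate 3, 8 of 21 members passed, and 36.4% of all probes did. These were Pold3, Cdk4, Cdc42ep2, Mcm4, Ccng1, Ccnd2, Bub3 and Pole4 (adjusted p from 0.00168 to 0.0461). With single arrays left out, 3 passed without E2F3 +/- day 4 replicate 3, 2 without E2F3 +/- day 3 replicate 1, and 1 without wild type day 2 replicate 1 or 2. Shares of all probes that passed in these single-array fits are not given.

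Other proliferation genes outside the symbol families were held in a list of 70, of which 10 genes with 14 probes were on the array and 12 probes were tested. On days 1 to 4, 4, 4, 4 and 5 probes were called higher and 6, 6, 7 and 6 lower in E2F3 +/- glands, and 2, 5, 2 and 0 higher and 3, 6, 7 and 7 lower in wild type glands. Of all probes, 23.2%, 23.7%, 34.2% and 33.2% were called higher and 20.3%, 22.2%, 32.7% and 37.4% lower in E2F3 +/- glands. In wild type glands 18.5%, 31.8%, 17.4% and 25.4% were called higher and 18.2%, 33.4%, 21.6% and 31% lower. The 4 probes with the lowest p over all day contrasts were of Stmn1, which destabilises microtubules, and Kpna2, a nuclear import adaptor. Stmn1 (probe M300017258) differed from lactation by 2.52, 1.41, 1.35 and 1.34 (adjusted p = 4.18e-08, 8.47e-05, 9.8e-05 and 7.84e-05) on E2F3 +/- days 1 to 4 and by 2.86, 1.06, 1.00 and 0.31 (adjusted p = 2.94e-09, 0.000764, 0.00238 and 0.26) on wild type days 1 to 4. Kpna2 (probe M300016492) differed by -1.28, -1.46, -1.13 and -1.53 (adjusted p = 0.00134, 0.000378, 0.0022 and 0.000133) on E2F3 +/- days and by -0.82, -1.74, -1.39 and -1.50 (adjusted p = 0.0289, 3.17e-05, 0.00068 and 0.000244) on wild type days. Of the second probes, M300006321 of Stmn1 was above 0 and M300001659 of Kpna2 below 0 on all days. Mki67, the standard marker of cycling cells, was named after its values were seen. It differed from lactation by -2.46, -2.13, -2.34 and -1.70 (adjusted p = 0.00152, 0.0043, 0.00138 and 0.0103) on E2F3 +/- days 1 to 4 and by -2.67, -0.81, -2.20 and -2.44 (adjusted p = 0.00189, 0.203, 0.0037 and 0.00117) on wild type days 1 to 4. Between genotypes, 2 of the 12 tested probes of the list were called at a single time and 0 over all times. Of all probes, 12.7% were called on day 2, 1.12% on day 4 and 0.619% over all times. Pcna, the sliding clamp, also named after its values were seen, was -1.08 (adjusted p = 0.0114) on day 2, and Stmn1 (probe M300017258) was 1.08 (adjusted p = 0.0298) on day 4, E2F3 +/- minus wild type.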

How the data were processed

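The authors deposited 1 linear ratio per probe and array (30 arrays, spotted 70-mer oligos). Per the labels, gland RNA carried Cy5 and a mouse reference RNA Cy3. How the scans were corrected and normalized is not stated in the labels used. The table gives ratios, not the log2 values the design allowed for; ratios at 0 (13146) or 0.01 (1223) were taken as missing, the rest were log2 transformed and each array was centred on its median (array medians 1 to 1.27). No depth exists for arrays; 3 mice per group limit the precision.

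Probes with at least 2 values in every group (5010) were fitted with limma 3.58.1 in R 4.3.3, with 1 mean for each of 10 groups, 20 residual degrees of freedom and Benjamini-Hochberg adjustment; errors are standard errors. Contrasts were each involution day against lactation in each genotype, E2F3 +/- against wild type (per time, and averaged over times), and the interaction of genotype and time. Per the labels each array is a separate mouse. Tables and figures used Python 3.11.15, pandas, numpy and matplotlib.

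The members and lists were chosen with earlier results of these data known. The text names core cell cycle members whatever their result, the 4 strongest members of each role, the 5 largest called changes in each direction and day, each member called between genotypes, and the 4 strongest other proliferation genes. All 29 genes matched RefSeq by gene ID. Replicate numbers were not treated as pairs. Of 135 correlations between equally numbered arrays of 45 group pairs, 35 exceeded 0.1 (range -0.58 to 0.41, median 0.01). Arrays of different numbers were not compared, so these values do not settle whether the numbers mark pairs. Alternatives were centring, quantile normalization, the filter, the reading of 0 and 0.01, array weights, a replicate block, fits of the groups compared and single arrays left out; 2 were added after seeing the data.

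On simulated data of this layout (5010 probes), wild type day 4 against lactation recovered 12%, 42%, 86% and 100% of probes changed 1.5-, 2-, 4- and 8-fold, and E2F3 +/- against wild type on day 2 recovered 2%, 38%, 82% and 98%. Of unchanged probes, 11 were called in the former comparison and 4 in the latter. The simulation changed a small share of probes in a single group, whereas 56.4% and 12.7% of all probes were called in the real comparisons. The adjusted threshold depends on that share, so these recoveries need not hold for the real data.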

Additional observations from a re-analysis of the deposited data

How the results depend on the processing

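Counts of members called against lactation were within 1.5 times their reported value except as follows. On E2F3 +/- day 1 (7), 11 were called under quantile normalization, 13 with array weights and 12 in a fit of both groups alone. On wild type day 1 (6), 11 were called with array weights and 10 in a fit of both groups alone; on day 2 (14), 9 in such a fit; on day 3 (8), 13 with weights and 13 in such a fit; on day 4 (14), 9 with probes read on all arrays alone, where 14 members remain. Between genotypes, the day 2 count of 1 became 0 with probes read on all arrays, with ratios at 0 or 0.01 set to the lowest other ratio, with weights and in a fit of both groups alone. The counts of 0 became 1, with that setting of 0 and 0.01, at lactation (Rb1) and in the genotype by time test, and 1 at lactation in a fit of both groups alone. With weights they became 3 at lactation, 2 on day 3, 4 on day 4, 3 over all times and 6 in the genotype by time test. Both settings added after seeing the data moved counts: without the 2 arrays that stood apart, 1 member was called on day 3, 3 on day 4, 2 over all times and 8 by genotype and time, and with the filter on the groups compared 1 on day 4. The shares of all probes called under these settings are not given beside the counts, so nothing particular to the members is read from them. The cause of these shifts was not tested.

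With single arrays left out, the counts ran over 5 to 8, 6 to 9, 11 to 17 and 10 to 15 on E2F3 +/- days 1 to 4, and 3 to 6, 10 to 15, 3 to 7 and 4 to 10 on wild type days 1 to 4. The joint tests over 4 days ran from 11 to 18 in E2F3 +/- and from 12 to 18 in wild type glands, and the genotype by time test from 0 to 3. Genotype counts ran from 0 to 3 on days 2 and 4 and stayed at 0 at lactation, on days 1 and 3 and over all times. The 4 reversed differences were those of Pold3 in E2F3 +/- glands, at 1.09, 1.15, 0.91 and 0.41 on days 1 to 4, with 0 and 0.01 set to the lowest other ratio. With the replicate number as a block, which is not known to mark a pairing, 8, 9, 17 and 14 members were called on E2F3 +/- days 1 to 4, 6, 16, 8 and 12 on wild type days 1 to 4, and 1 between genotypes, on day 2. Calls not made under the block were Rfc5 on E2F3 +/- day 2 and Ccnl1 and Ccna2 on wild type day 4. Shares of all probes called with single arrays left out or under the block are not given. Few readings limit the precision of Cdc7, Kif3c and Pole.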
